A study of Mus musculus with 24 samples.

Results

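The genes described here are the protein-coding genes that start within one stretch of mouse chromosome 12, from 35.0 to 73.1 Mb on GRCm38 with GENCODE vM21 gene models, as measured in LLC1 tumours. LLC1 is the Lewis lung carcinoma line, and KP is a lung cancer line from a genetically engineered mouse model that includes loss of p53. A gene was a member where the mean of 1 or more of the 3 LLC1 groups exceeded the table's lowest value by at least 1 log2 unit, about 130.4 normalised counts. Genes whose symbols start with Slc, Psma or Rp, and Nfkbia, Foxa1 and Nkx2-1, were left out. This gave 84 members among 31618 genes in the LLC1 table and among the 10581 LLC1 genes that passed the same level filter. Of the 131 protein-coding genes that start in the stretch, 39 were under the filter and 8 were left out by name. The stretch was chosen because its genes were low in chronic IFNG LLC1 tumours, so the chronic IFNG values are a description and carry no test.

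The data were 24 RNA libraries in 8 groups of 3, from live cells without the leukocyte protein CD45, sorted on day 15 from tumours grown in mice. The LLC1 groups were tumours exposed to low-level chronic IFNG (interferon gamma), tumours relapsed after immune checkpoint blockade, and parental tumours. The KP groups were chronic IFNG, 1st relapse, 2nd relapse, late relapse and parental tumours, and 75 of the members passed the level filter in that line's own table. The dose of IFNG, the blocking agents, the mouse strain and age, and whether a line was 1 clone or a mixed population are not given in the sources used here. The libraries are called biological replicates, but no animal is named, so p-values measure the spread between these libraries.

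Estimated depth was 13.3 to 18.5 M fragments in chronic IFNG LLC1 libraries, 20.4 to 24.3 M in relapsed LLC1 libraries and 18.5 to 34.95 M in parental LLC1 libraries, and 13.7 to 32.7 M in KP. The leukocyte gene Ptprc, which encodes CD45, was at 0.288 to 2.93 CPM (counts scaled to the library total) in LLC1 and at 0.5 to 9.66 in KP, and 0 of 10 leukocyte markers passed the filter in LLC1. The epithelial marker Epcam was at most 1.22 CPM in any LLC1 library, whereas Krt8, an epithelial keratin, was at 94.6 to 186. All 14 fibroblast markers passed the filter in LLC1, and their sum was 22637 to 35617 CPM in chronic IFNG, 13161 to 14923 in relapsed and 11846 to 16819 in parental libraries. Of these, Col1a1 was at 196 to 274 CPM in chronic IFNG, 42.6 to 46.8 in relapsed and 69 to 114 in parental libraries. Most of each sum thus came from other markers. The sum of 14 proliferation genes was 937 to 1157 CPM in chronic IFNG, 1986 to 2063 in relapsed and 1432 to 1749 in parental libraries. The chronic IFNG libraries therefore lay outside both other LLC1 groups in these sums. The part of these sums and of depth in the values below was not tested, and in bulk RNA fewer cells of a type and less RNA per cell cannot be told apart.

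As background, genes that lie side by side on a chromosome mostly have unrelated roles, and tumour lines often gain or lose stretches of a chromosome, which tends to shift the RNA of many genes there together. DNA copy number was not measured here. The members include regulators of Rac and Ral signalling, a sensor of oxygen, components of the centrosome and of DNA replication, ubiquitin ligases, splicing factors and homeobox transcription factors.

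The promoters of the 3 members with the lowest chronic IFNG values in LLC1, Dock4, Brms1l and Egln3, are shown for what the DNA next to these genes holds. Each runs from 250 bases before to 50 bases after the RefSeq start of the gene on GRCm38.p6, 5′ to 3′ on the gene's strand. The RefSeq starts differ from the GENCODE gene positions given below for these genes. Capitals mark CCAAT, the core of the binding site of the factor NF-Y, and ACGTG, the core bound by hypoxia-inducible factors, on either strand. The windows are chr12:40445803-40446102 on the plus strand for Dock4, chr12:55836116-55836415 on the plus strand for Brms1l and chr12:54203825-54204124 on the minus strand for Egln3.
Dock4: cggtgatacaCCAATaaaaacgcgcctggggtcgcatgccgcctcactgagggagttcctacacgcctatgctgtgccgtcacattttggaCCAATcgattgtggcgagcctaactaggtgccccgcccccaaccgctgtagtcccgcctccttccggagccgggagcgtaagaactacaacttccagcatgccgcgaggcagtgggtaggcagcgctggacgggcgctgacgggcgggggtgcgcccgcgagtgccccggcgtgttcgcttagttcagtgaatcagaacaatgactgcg
Brms1l: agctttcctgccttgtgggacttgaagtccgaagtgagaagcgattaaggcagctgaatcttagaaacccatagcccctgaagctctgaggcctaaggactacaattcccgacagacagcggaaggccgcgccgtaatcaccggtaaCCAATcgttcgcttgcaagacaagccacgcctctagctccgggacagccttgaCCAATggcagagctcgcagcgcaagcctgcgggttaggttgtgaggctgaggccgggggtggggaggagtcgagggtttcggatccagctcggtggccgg
Egln3: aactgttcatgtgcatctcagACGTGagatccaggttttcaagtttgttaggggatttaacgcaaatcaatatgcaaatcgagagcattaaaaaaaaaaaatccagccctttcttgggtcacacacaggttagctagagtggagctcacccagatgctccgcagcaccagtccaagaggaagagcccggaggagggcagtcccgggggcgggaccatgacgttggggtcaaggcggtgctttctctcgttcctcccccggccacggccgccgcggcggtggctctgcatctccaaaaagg
Dock4 and Brms1l each held 2 CCAAT matches and no ACGTG, and Egln3 held 1 ACGTG and no CCAAT. Dock4 also held 1 match of TTCNNNGAA, the interferon gamma activated site, left in lower case, and Brms1l and Egln3 held none. A promoter was in the RefSeq table for 69 of the 84 members. ACGTG was in 28 of these (40.6%), against 27.1% of the 8021 promoters of filtered genes and 19.7% of all 27025 promoters. CCAAT was in 27 of them (39.1%), against 39.4% of promoters of filtered genes. TTCNNNGAA was in 7 (10.1%), against 6.74% of promoters of filtered genes. The GC box GGGCGG was in 45 (65.2%), against 68.2% of promoters of filtered genes, and TATAAA was in 3 (4.35%), against 6.23%. Motifs were searched on both strands and a match is a description of letters only. The median GC content was 60% in members and 61.7% in filtered genes.

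In chronic IFNG LLC1 tumours the members lay below parental tumours by a small amount in nearly every gene. The median difference was -0.24 on the deposited log2 scale, with quartiles of -0.37 and -0.16, and 77 of 84 members were negative. As a fold of normalised counts the median was 0.783. Over all 10581 filtered genes the median difference was -0.02 and 54.1% were negative. All 3 chronic IFNG libraries were below all 3 parental libraries in 61 members, where 23.6% of filtered genes were, and no member had all 3 above, where 15% of filtered genes did. By the adjusted p of limma, 55 members would be called lower, beside 15.5% of filtered genes, and 0 higher, beside 9.03%. Nothing is read from these counts, since this contrast chose the stretch. On the deposited scale, which is compressed at low counts, 7 members lay at or below -0.5 and 1 at or below -1. Over all 10581 filtered genes, 169 and 15 did. Brms1l, at -0.99, was 2.85-fold lower in counts, and Pax9, at -0.48, was 2.29-fold lower.

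The chronic IFNG libraries were alike. Relative to the parental mean, the median over members was -0.23, -0.25 and -0.26 in the 3 chronic IFNG libraries, with 76, 78 and 80 of 84 members below 0. It was -0.04, -0.08 and -0.06 in the relapsed libraries and 0.03, -0.01 and -0.02 in the parental libraries. Every chronic IFNG library was thus lower than every library of the other groups.

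**Figure D1:**
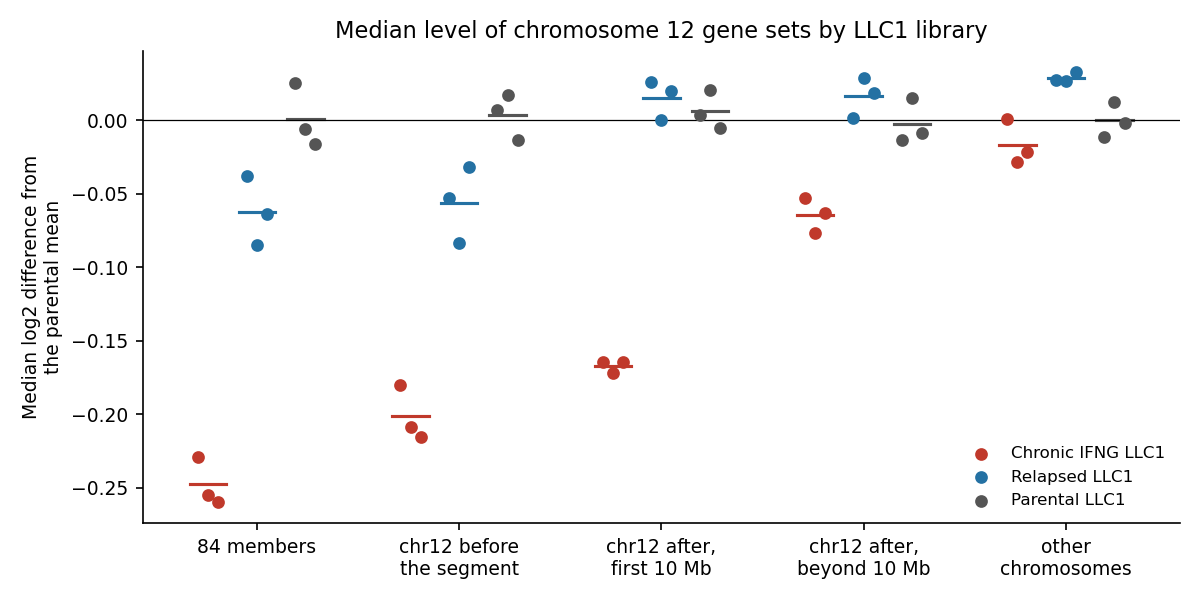
Median log2 difference from the parental mean in each of the 9 LLC1 libraries, for the members and for other sets of genes. The chronic IFNG libraries sit at -0.23 to -0.26 for the members, and genes off chromosome 12 sit at 0.00 to -0.03.

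The direction of the members follows from how the stretch was chosen, and low values were not confined to the stretch. Before it, 74 filtered genes of chromosome 12 had a median of -0.20, and 64 of them (86.5%) were negative. In the first 10 Mb after it, 44 genes had a median of -0.18 with 38 negative, and the 147 genes beyond had a median of -0.07 with 98 negative. The 5 filtered genes left out by name had a median of -0.38 and were all negative. The 9739 coding genes on other chromosomes had a median of -0.01. The whole of chromosome 12, with 354 filtered genes at a median of -0.15, was the lowest of the 19 autosomes in this contrast, and chromosome 18 was next at -0.14. In 10 Mb bins the median was -0.40 (7 genes), -0.29 and -0.32 between 40 and 70 Mb, and it was also -0.30 (14 genes) between 10 and 20 Mb.

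The ends are shown by the genes on each side. Just inside the start lay Snx13 at -0.18, Ahr at 0.02, Bzw2 at -0.39 and Ankmy2 at 0.03, and just outside it Sypl at -0.21, Atxn7l1 at -0.17, Twistnb at -0.29 and Twist1 at -0.15. Just inside the other end lay Dhrs7 at -0.15, Ppm1a at -0.25 and Six4 at -0.09. Just outside it lay Mnat1 at -0.15, Trmt5 at -0.31, Slc38a6 at 0.14 and Hif1a, the oxygen-regulated transcription factor, at -0.43. By level, Atl1 and Gm49383 were the members just above the filter, and Prkd1 and Stxbp6 lay just below it at 0.89 and 0.94 log2 units above the lowest value. Of the members, 76 passed the filter in all 3 groups, and Lrrn3, Ap4s1, Akap6, Pax9, Gm49383 and Atp5s did not pass it in chronic IFNG tumours. Across members, the Spearman correlation of the chronic IFNG difference was -0.26 with level, -0.02 with gene span and 0.13 with distance along the stretch, as a description over 84 genes that share the same libraries.

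**Figure D2:**
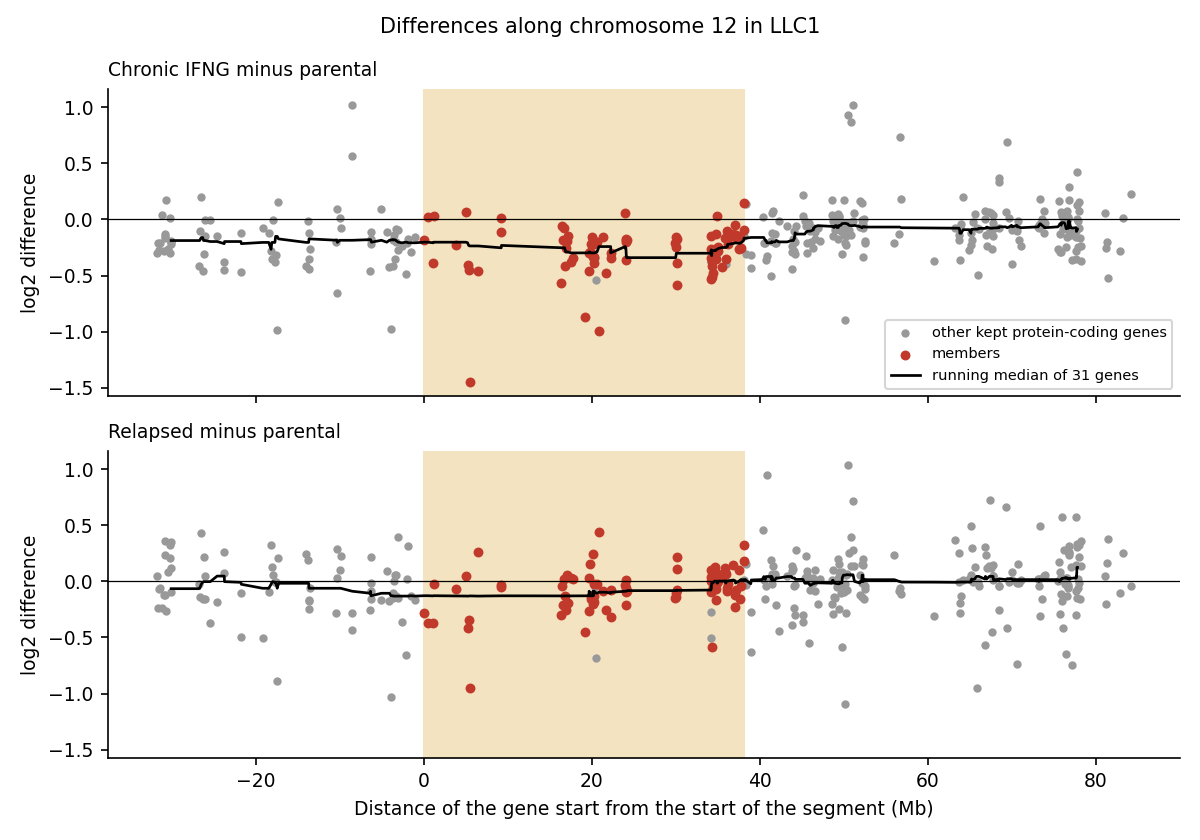
Log2 difference from parental LLC1 tumours for genes in order along chromosome 12, plotted by distance in Mb from the start of the stretch (shaded), with members in red and a running median of 31 genes. In the upper panel (chronic IFNG) the running median is below 0 on both sides of the stretch too, and in the lower panel (relapsed) it lies nearer 0.

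Among the 11 members in kinase, phosphatase and GTPase signalling, all were negative in chronic IFNG tumours, with a median of -0.28 and 9 with all 3 libraries below parental. Over all members, 61 of 84 had all 3 libraries below parental, beside 23.6% of filtered genes. Nothing is read from the counts by role here and below, since this contrast chose the stretch. Dock4, an exchange factor that activates the GTPase Rac (chr12:40445952-40846874, plus strand), had 145, 164 and 171 normalised counts in chronic IFNG, 346, 358 and 358 in relapsed and 1063, 1148 and 951 in parental libraries. It was 6.58-fold lower in chronic IFNG tumours, -1.45 on the log2 scale, and the 3 groups did not overlap. Arhgap5, a GTPase-activating protein, had 3201, 2750 and 2824 counts in chronic IFNG, 4076, 3976 and 4078 in relapsed and 4191, 3741 and 3915 in parental libraries. Its chronic IFNG difference was -0.38. Map4k5, a kinase of the MAP kinase cascade, was at -0.36, Ppm1a, a phosphatase of Smad proteins, at -0.25, and Frmd6, an upstream member of the Hippo pathway, at -0.17.

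The 5 members in genome maintenance and mitosis were all negative, with a median of -0.53, and 3 had libraries that did not overlap. Pole2, a subunit of the replicative DNA polymerase epsilon, had 460, 390 and 408 counts in chronic IFNG, 697, 664 and 740 in relapsed and 792, 839 and 705 in parental libraries, at -0.53. G2e3, a ubiquitin ligase named for its G2 phase expression, was at -0.57, Nin, which anchors microtubules at the centrosome, at -0.24, and Fancm, a DNA translocase of the Fanconi anaemia pathway, at -0.17. Nin and Fancm overlapped between groups. The sum of the proliferation genes given above was also lowest in the chronic IFNG libraries, and its part in these values was not tested. In relapsed libraries that sum was above parental. Of the 5 members, 2 were negative there, with a median of 0.004, and 1 fell and 1 rose.

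Of the 12 members in transcription and chromatin, 10 were negative, with a median of -0.26 and 7 without overlap. Brms1l, a component of the Sin3 histone deacetylase complex (chr12:55836324-55869736, plus strand), had 509, 295 and 593 normalised counts in chronic IFNG, 2244, 1589 and 1998 in relapsed and 1700, 1140 and 1136 in parental libraries. It was 2.85-fold lower in chronic IFNG tumours, at -0.99. Pax9, a paired-box transcription factor, had 155, 128 and 106 counts in chronic IFNG, 206, 173 and 214 in relapsed and 314, 286 and 290 in parental libraries, at -0.48. Ifrd1, a transcriptional co-regulator, was at -0.40, Baz1a, a subunit of chromatin remodellers, at -0.30, and Etv1, an ETS factor, at -0.23. The homeobox gene Six4, at -0.09, and Ahr, the ligand-activated aryl hydrocarbon receptor, at 0.02, had libraries that overlapped parental ones.

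Of 10 members in metabolism and mitochondria, all were negative, with a median of -0.16 and 9 without overlap. Egln3, an oxygen-dependent prolyl hydroxylase that acts on hypoxia-inducible factors (chr12:54178981-54203860, minus strand), had 2633, 2914 and 2774 normalised counts in chronic IFNG, 3328, 3790 and 4519 in relapsed and 6134, 5768 and 4571 in parental libraries. It was 1.98-fold lower in chronic IFNG tumours, at -0.87. Sptssa, a small subunit of serine palmitoyltransferase, which starts sphingolipid synthesis, was at -0.46, Mgat2, an enzyme of N-glycan building, at -0.15, and Pnpla8, a phospholipase, at -0.11.

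Of 10 members in ubiquitin and protein folding, 9 were negative, with a median of -0.33 and 8 without overlap. Klhdc1, a substrate receptor of a cullin ubiquitin ligase, had 223, 105 and 154 counts in chronic IFNG, 135, 115 and 155 in relapsed and 386, 296 and 388 in parental libraries. Every chronic IFNG and relapsed library was below every parental one, and the chronic IFNG difference was -0.51. Its neighbour Klhdc2, which has the same kind of role, was at -0.41, Tmx1, a thioredoxin-like protein of the endoplasmic reticulum, at -0.43, and Fkbp3, a prolyl isomerase, at -0.39.

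All 10 members in RNA processing and translation were negative, with a median of -0.28 and 8 without overlap. Bzw2, a regulator of translation initiation, had 2113, 2150 and 2492 counts in chronic IFNG, 2180, 2369 and 2310 in relapsed and 3160, 2928 and 3209 in parental libraries. Nemf, which tags stalled translation products for decay, was at -0.37, and Prpf39, a splicing factor, at -0.15 with overlap. Srp54a, a subunit of the signal recognition particle, was at -0.34, but it, Srp54b and Srp54c are near-identical copies, so how reads were split between them is uncertain.

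The 11 members in the secretory pathway and membrane traffic had a median of -0.17, with 8 negative and 5 without overlap. Arf6, a GTPase of endocytic recycling, had 2804, 2905 and 3008 counts in chronic IFNG, 4051, 4034 and 4096 in relapsed and 4293, 4222 and 4183 in parental libraries, at -0.48. Heatr5a was at -0.25 and Snx6, a sorting nexin of retrograde transport, at -0.29. Sec23a, a coat protein of vesicles leaving the endoplasmic reticulum, at 0.05, Arl4a, a small GTPase, at 0.06 and Atl1, which fuses membranes of that organelle, at 0.03 were among the 4 highest members. All 3 overlapped parental libraries, and with 1 library left out their differences ran from -0.0408 to 0.168 for Sec23a, -0.0609 to 0.201 for Arl4a and -0.082 to 0.149 for Atl1, so their direction rests on single libraries. Atl1 passed the level filter in chronic IFNG tumours only. All 4 members in the actin and microtubule cytoskeleton were negative, with a median of -0.23 and 3 without overlap. They were Actr10, a dynactin subunit, at -0.35, Togaram1, a microtubule regulator of cilia, at -0.24, Cfl2, a cofilin that severs actin filaments, at -0.22 and Daam1, a formin, at -0.13. The orphan receptor Gpr135, the only member in the list of cell surface and matrix genes, was at -0.05 and overlapped. Of the 10 members in no list, 9 were negative, with a median of -0.26.

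**Figure D3:**
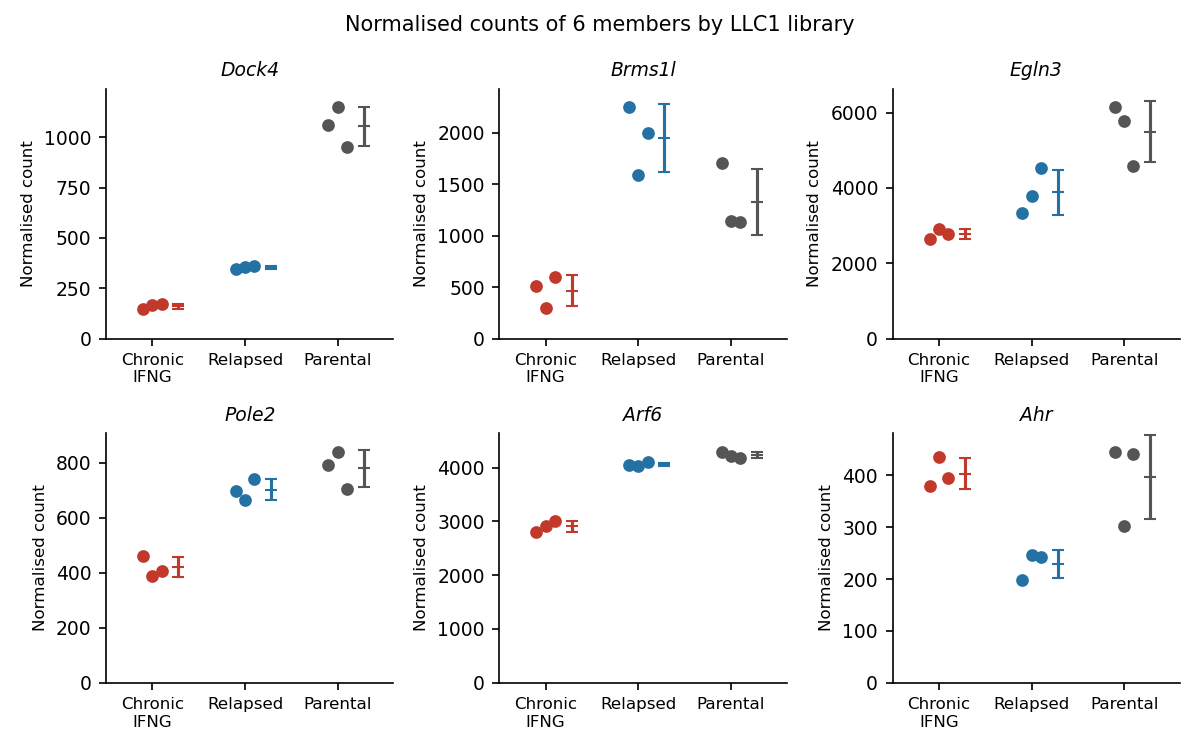
Normalised counts of 6 members in each of the 9 LLC1 libraries, in chronic IFNG, relapsed and parental tumours, with bars for the mean and SD of 3 libraries. Dock4 is low in chronic IFNG and relapsed libraries, while Pole2 and Arf6 are lowest in chronic IFNG libraries and Ahr in relapsed ones.

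In relapsed LLC1 tumours the members were near parental values, with changes in both directions. The median difference was -0.06, with quartiles of -0.16 and 0.03, against 0.03 over all filtered genes. By limma with Benjamini-Hochberg adjustment over 10581 genes, 20 of 84 members (23.8%) fell, beside 19.5% of filtered genes, 6 (7.14%) rose, beside 25.9%, and 58 did not pass the threshold of 0.05. The count that rose was 3 without a filter, 3 without parental replicate 3 and 2 without relapsed replicate 3. All 3 libraries were below the parental ones in 34 members, beside 25.2% of filtered genes, and above in 9, beside 33.6%. Before the stretch, 74 filtered genes of chromosome 12 had a median of -0.06, with 23% falling and 21.6% rising. After it, 191 genes had a median of 0.02, with 17.8% falling and 21.5% rising. This comparison shares its parental libraries with the one that chose the stretch.

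Dock4 fell the furthest, 2.98-fold, with a log2 difference of -0.95 ± 0.06 (SE, n = 3 each, limma adjusted p = 8e-07), and its relapsed counts were above its chronic IFNG counts in every library. Klhdc1 fell by 0.58 on the log2 scale (adjusted p = 5.8e-04) and Egln3 by 0.45 (adjusted p = 0.0069), both in limma, and neither overlapped parental libraries. Ifrd1 fell by 0.42 (adjusted p = 0.0019) and Bzw2 by 0.37 (adjusted p = 7.9e-04), with relapsed counts close to the chronic IFNG ones. Ahr fell by 0.37 (limma adjusted p = 0.0028), with 198, 246 and 242 counts in relapsed and 446, 303 and 441 in parental libraries. Its chronic IFNG counts of 379, 436 and 394 stayed within the parental range. G2e3 fell by 0.30 (adjusted p = 0.0048) and Pax9 by 0.26 (adjusted p = 0.005) in the same fit.

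Six4 rose by 0.32 (limma adjusted p = 0.0089), with 3099, 2806 and 2780 counts in relapsed and 2293, 2290 and 2083 in parental libraries. Fam177a rose by 0.25 (adjusted p = 0.002), with 2053, 2001 and 1921 counts in relapsed and 1601, 1526 and 1689 in parental libraries. Neither overlapped parental libraries. The calls of Brms1l and Snx6 were less firm. Brms1l rose by 0.44 (adjusted p = 0.042) with overlapping libraries, and its adjusted p was 0.0901 with no filter, 0.0655 after quantile normalisation, 0.0593 after median centring and 0.0783 on counts. It was 0.131 and 0.127 without parental replicates 2 and 3, and 0.146 and 0.1005 without relapsed replicates 1 and 3. Snx6 rose by 0.16 (adjusted p = 0.018) and had 0.0506 without parental replicate 3 and 0.0681 without relapsed replicate 3. Lrrn3, a leucine-rich membrane protein counted among the 6, had 197, 190 and 221 counts in relapsed and 96.3, 152 and 121 in parental libraries. It passed the level filter in relapsed tumours only, so it had to be higher there, and no test is given for it. Pole2, at -0.10 (adjusted p = 0.19), did not pass the threshold. Relapsed tumours lay above chronic IFNG tumours in 67 of 84 members, with a median of 0.16 against 0.04 over all filtered genes, given as a description since the chronic IFNG libraries chose the stretch. All 3 relapsed libraries were above the chronic IFNG ones in 46 members and below in 1, beside 36.1% and 24.6% of filtered genes. By adjusted p, 43 members would be called higher, beside 31.5% of filtered genes, and 1 lower, beside 20.5%, and nothing is read from these counts.

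By role, beside the 19.5% of filtered genes that fell and the 25.9% that rose, 5 of 12 transcription and chromatin members fell in relapsed tumours and 2 rose. Likewise 4 of 10 in RNA processing and translation and 4 of 10 in metabolism and mitochondria fell, with none rising. In genome maintenance and mitosis 1 fell and 1 rose of 5, and in the secretory pathway 2 fell and 1 rose of 11. In signalling 2 of 11 fell, in ubiquitin and protein folding 1 of 10 fell, and in the cytoskeleton 0 of 4 passed the threshold.

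**Figure D4:**
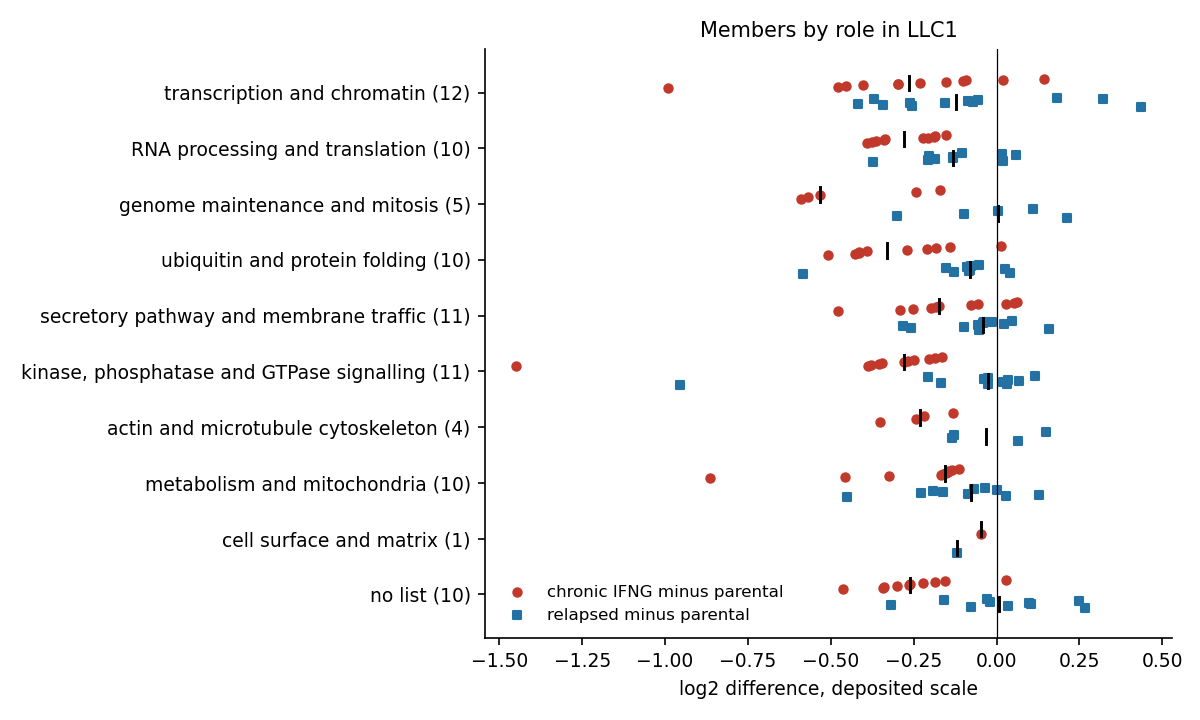
Log2 difference from parental LLC1 tumours for each of the 84 members, grouped by role list, for chronic IFNG tumours (circles) and relapsed tumours (squares), with black bars for the medians. Chronic IFNG medians run from -0.53 in genome maintenance and mitosis to -0.05 for Gpr135.

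In KP, whose tumours did not enter the choice of the stretch, the members had small differences in both directions in chronic IFNG tumours. The median over 75 members was -0.06 against -0.01 over 11193 filtered genes, with 51 negative. By limma, 10 members (13.3%) fell, beside 9% of filtered genes, and 6 (8%) rose, beside 12.8%. All 3 libraries were below the parental ones in 20 members and above in 9, beside 18.5% and 19.9% of filtered genes. The count that fell was 6 in a fit of these 2 groups alone, and 5 without parental KP replicate 1, 6 without parental KP replicate 3 and 4 without chronic IFNG KP replicate 1. The count that rose was 3 without parental KP replicate 2, chronic IFNG KP replicate 2 or chronic IFNG KP replicate 3. The library medians were -0.13, -0.02 and -0.03 in chronic IFNG KP and 0.01, -0.02 and 0.02 in parental KP, so 1 chronic IFNG library was lower than the others.

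Of the 8 members lowest in chronic IFNG LLC1, Dock4, Pax9 and Egln3 rose in chronic IFNG KP, Brms1l fell, and the other 4 did not pass the threshold. Dock4 rose by 0.36 (limma adjusted p = 5.0e-04), with 1125, 980 and 1064 counts in chronic IFNG KP and 780, 603 and 779 in parental KP. Pax9 rose by 0.30 (adjusted p = 0.0012), with 765, 744 and 867 counts in chronic IFNG KP and 600, 513 and 562 in parental KP. Egln3 rose by 0.31 (adjusted p = 0.026), with 2541, 2840 and 2988 counts in chronic IFNG KP and 1816, 2205 and 2472 in parental KP, and had 0.0573 in the fit of these 2 groups alone, 0.126 and 0.0531 without parental KP replicates 1 and 2, and 0.0581 and 0.102 without chronic IFNG KP replicates 2 and 3. None of these 3 overlapped parental KP libraries. Brms1l fell by 0.17 (adjusted p = 0.026), with 492, 569 and 542 counts in chronic IFNG KP and 675, 587 and 706 in parental KP. It had 0.0723 with no filter, 0.0732 in the fit of these 2 groups alone, 0.0867 and 0.108 without parental KP replicates 1 and 3, and 0.12 and 0.0575 without chronic IFNG KP replicates 1 and 3. Etv1 fell by 0.54 (limma adjusted p = 3.7e-04), with 93.4, 146 and 72.9 counts in chronic IFNG KP and 258, 340 and 266 in parental KP. Its chronic IFNG KP mean of 104 counts was under the level filter of about 144.2. Etv1 passed that filter in parental and 1st relapse KP only, so of the groups compared here it passed only where it was higher. Ahr fell by 0.34 (adjusted p = 0.0025), with 2190, 2390 and 2198 counts in chronic IFNG KP and 3119, 2736 and 3157 in parental KP. Nin fell by 0.33 (adjusted p = 0.021), with overlap, and had 0.064 in the fit of these 2 groups alone, 0.0772 and 0.0818 without parental KP replicates 1 and 2, and 0.106 and 0.0819 without chronic IFNG KP replicates 1 and 3.

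The relapsed KP groups, compared with the same 3 parental KP libraries, also had more members that fell than rose. In 1st relapse tumours 31 members (41.3%) fell, beside 25.5% of filtered genes, and 7 (9.33%) rose, beside 25.4%, with a median of -0.09 against -0.01. In 2nd relapse tumours 29 (38.7%) fell, beside 29%, and 12 (16%) rose, beside 36.8%, with a median of -0.09 against 0.03. In late relapse tumours 25 (33.3%) fell, beside 25.9%, and 8 (10.7%) rose, beside 31%, with a median of -0.06 against 0.01. All 3 libraries were below the parental ones in 37, 32 and 27 members of the 1st, 2nd and late relapse, beside 29.6%, 31.5% and 28.7% of filtered genes, and above in 8, 17 and 11, beside 29.6%, 40.1% and 33.6%. Low values were again not confined to the stretch. Of filtered chromosome 12 coding genes before it, 36%, 34.7% and 33.3% fell in the 1st, 2nd and late relapse, and 20%, 28% and 22.7% rose. After it 35.5%, 36% and 29% fell, and 21%, 24.5% and 29% rose. Whether the shares of members differ from any of these was not tested.

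In 1st relapse KP, Nin fell by 0.59 (limma adjusted p = 1.3e-04), Frmd6 by 0.55 (adjusted p = 2.3e-05) and Ifrd1 by 0.51 (adjusted p = 8.2e-05). Dock4 rose by 0.28 (adjusted p = 0.0016) and Dhrs7, a short-chain dehydrogenase, by 0.24 (adjusted p = 1.9e-04). Etv1 rose by 0.24 (adjusted p = 0.03) and had 0.22 after quantile normalisation, 0.0672 after median centring and 0.105 on counts. It had 0.1005 and 0.0903 without parental KP replicates 1 and 3 and 0.102 without 1st relapse KP replicate 2. The p-values of this group are from the fit without a replicate block, although its same-numbered libraries were taken to pair with parental KP ones. The calls named here held with the block too, and its counts are given below. Fibroblast markers summed to 3057 to 4299 CPM in 1st relapse KP and 728 to 1124 in parental KP, and their part in these values was not tested.

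Among the tested comparisons, the largest falls on the log2 scale were in 2nd relapse KP. Six4 had 37.9, 37.6 and 31.4 counts in 2nd relapse and 495, 475 and 485 in parental libraries, a 13.6-fold fall (log2 -1.26 ± 0.05, SE, n = 3 each, limma adjusted p = 2e-11). Akap6, a scaffold for protein kinase A, had 39.1, 27.2 and 31.4 counts in 2nd relapse and 390, 402 and 406 in parental libraries, a 12.3-fold fall (log2 -1.13, adjusted p = 1.7e-09). Both genes were far below every parental library, and in 2nd relapse both lay under the level filter of about 144.2 counts. Akap6 passed that filter in every other KP group. Frmd6 fell by 0.96 (limma adjusted p = 2.9e-08), with 1577, 1710 and 1610 counts in 2nd relapse and 3676, 3424 and 3925 in parental libraries. Pax9 rose by 0.51 (adjusted p = 1.5e-06), Mia2, which helps export large cargo from the endoplasmic reticulum, by 0.47 (adjusted p = 8.9e-06) and Arl4a by 0.43 (adjusted p = 2.8e-06). In the secretory pathway 5 of 9 members rose and 1 fell, while in transcription and chromatin 6 of 11 fell and 4 rose, beside 36.8% of filtered genes that rose and 29% that fell. Fibroblast markers summed to 89.7 to 121 CPM in 2nd relapse KP, below parental KP. Macrophage markers, of which 2 of 8 passed the filter, summed to 254 to 298 in 2nd relapse, 184 to 303 in late relapse and 73.5 to 103 in parental KP. The part of these sums was not tested.

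In late relapse KP, Six4 had 148, 138 and 116 counts, with a mean under the level filter, and fell by 0.79 (limma adjusted p = 6.6e-09). Ralgapa1, which switches off Ral GTPases, fell by 0.64 (adjusted p = 1.2e-06) and Prpf39 by 0.53 (adjusted p = 1.7e-05). Dhrs7 rose by 0.35 (adjusted p = 5.9e-06), Arl4a by 0.24 (adjusted p = 0.0011) and Snx13, a sorting nexin, by 0.19 (adjusted p = 0.011), the last with 0.0561 without late relapse KP replicate 1. In the secretory pathway 6 of 9 members rose and 1 fell, and in signalling 7 of 11 fell, beside 31% of filtered genes that rose and 25.9% that fell.

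**Figure D5:**
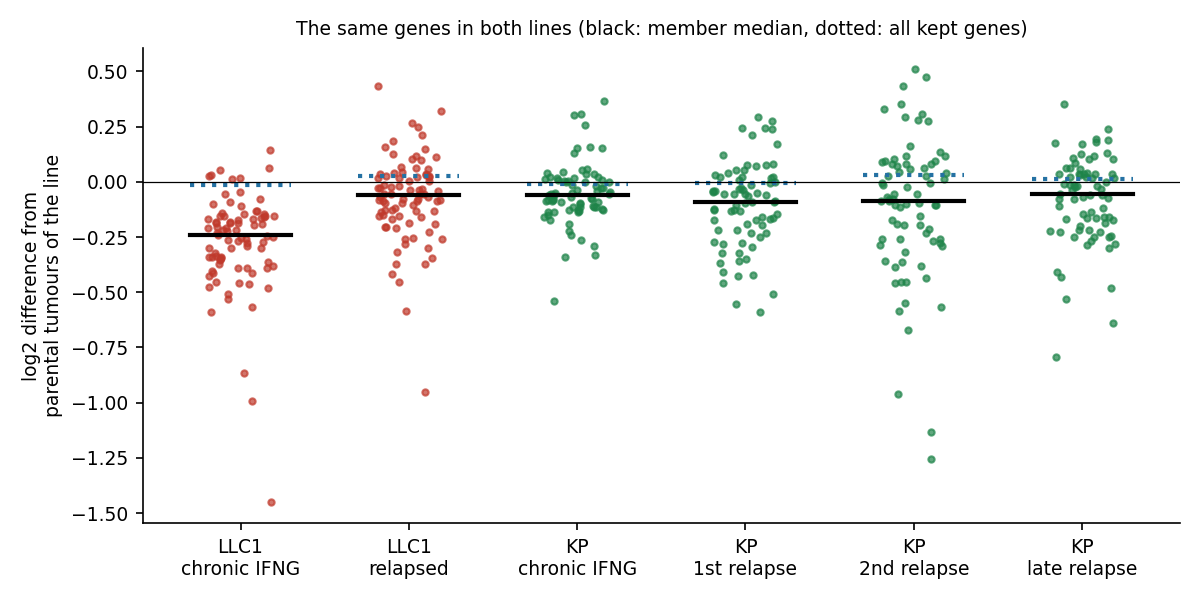
Log2 difference from parental tumours for members in the LLC1 and KP groups, each line from its own separately normalised table, as points per member with medians. The chronic IFNG LLC1 median of -0.24 lies lower than the KP medians of -0.06 to -0.09.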

How the data were processed

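RNA was measured in 24 libraries of CD45-negative tumour cells. Per the submitters' processing notes, the tools were Salmon 1.8.0, DESeq2 1.34.0 and cutadapt 2.9, each with no role given, on GRCm38 (mm10). The deposited log2 values look variance-stabilised, and each line has its own table, normalised separately. Normalised counts come from inverting that transformation, with the lowest value (8.03 in LLC1, 8.17 in KP) as 0; log2 differences are on the deposited scale, which is compressed at low counts. Depth was estimated from the spacing of low values, which fell within 0.15 of whole reads for 69.7% to 77.2% of them.

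Genes with a group mean 1 log2 unit above the lowest value were kept (10581 in LLC1, 11193 in KP), which is about 130.4 and 144.2 normalised counts. The fits used R 4.3.3 and limma 3.58.1 with an intensity trend, all groups of a line in 1 fit, and Benjamini-Hochberg adjustment over kept genes at 0.05. The fit was tested on simulated data. Gene symbols and positions came from GENCODE vM21, with 70 LLC1 and 85 KP identifiers unmatched. No other columns were used. Role lists were written by hand; the members, the lists and the marker lists were chosen with earlier results of these data known, and the epithelial markers were added after seeing the data. Named members are up to 4 per role list with the highest mean deposited value, the 8 lowest and 4 highest chronic IFNG LLC1 differences, the called members with the largest differences per tested comparison (up to 6 a side in LLC1 and 3 in KP, without predicted-gene names), the 4 genes on each side of both ends, and 2 genes on each side of the filter. Some members that this rule names are not reported here.

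The groups share replicate numbers, and numbers were taken to pair libraries where every same-numbered pair's deviations correlated above 0.1. This held for 1st relapse against parental KP alone, at 0.149, 0.112 and 0.206. Alternatives were other filters, scalings, counts, a fit without the trend, a fit of the groups compared alone, the replicate block, each library left out and the members without the outer 3 Mb. Tables and plots used Python 3.11.15 and matplotlib 3.10.9.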

Additional observations from a re-analysis of the deposited data

Results flagged for a closer look

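For 8 members every chronic IFNG LLC1 library lay below every parental LLC1 library, while every chronic IFNG KP library lay above every parental KP library. That is 10.7% of the 75 members kept in both lines, beside 315 of 9822 genes kept in both lines (3.21%), and nothing is read from the 2 shares, since the members were chosen as low in LLC1. A further 16 members (21.3%) had all libraries lower in both lines, beside 5.79% of those genes. The difference between the lines was not tested, because the tables were normalised separately. The log2 differences from parental tumours, chronic IFNG LLC1 first and chronic IFNG KP second, were -1.45 and 0.36 for Dock4, -0.87 and 0.31 for Egln3, -0.48 and 0.30 for Pax9 and -0.38 and 0.16 for Arhgap5. They were -0.30 and 0.13 for Eapp, -0.22 and 0.15 for 1110008L16Rik, -0.20 and 0.15 for Mia2 and -0.15 and 0.042 for Dhrs7. The last, and Eapp and Mia2, did not pass the threshold in KP.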

How the results depend on the processing

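The chronic IFNG LLC1 median of -0.24 stayed negative in every alternative run. Nothing is read from that sign, since this contrast chose the stretch and the runs used the same libraries. The median was -0.28 with a stricter filter (37 of 38 members below 0), -0.21 after quantile normalisation, -0.36 on back-calculated counts and -0.27 without the outer 3 Mb. It ran from -0.26 to -0.23 when each library was left out, with 76 to 82 members below 0. For relapsed against parental LLC1 the median was -0.0881 after quantile normalisation, -0.092 after median centring and -0.0844 to -0.0511 with a library left out. The members that fell were 10 of 38 with the stricter filter and 16 to 20 of 84 with a library left out. Those that rose were 3 with no filter and 2 to 6 with a library left out. For relapsed against chronic IFNG LLC1 the median was 0.21 with the stricter filter (5 below 0), 0.11 after quantile normalisation, 0.11 after centring and 0.21 on counts. It was 0.15 to 0.19 with a library left out (13 to 18 below 0), and 11 were below 0 without the outer 3 Mb. In chronic IFNG KP the members that fell were 6 with no filter, 5 with the stricter filter, 6 in the fit of 2 groups and 4 to 15 with a library left out; those that rose were 2 with the stricter filter and 3 to 6, and the median ran from -0.0811 to -0.0305. In 1st relapse KP the median was -0.0618 with no filter, -0.20 with the stricter filter, -0.13 after quantile normalisation, -0.13 after centring, -0.14 on counts and -0.0597 without the outer 3 Mb, and -0.114 to -0.0738 with a library left out. There 23 to 30 members fell and 6 to 7 rose with a library left out, and 1 rose with the stricter filter. In 2nd relapse KP the median was -0.16 with the stricter filter (16 fell, 5 rose), -0.13 after quantile normalisation, -0.13 after centring and -0.13 on counts, and 19 fell without the outer 3 Mb; with a library left out it was -0.0979 to -0.0511, with 29 to 32 falling and 10 to 12 rising. In late relapse KP the median was -0.0856 after quantile normalisation, -0.0862 after centring and -0.087 on counts, and 11 fell and 4 rose with the stricter filter; with a library left out it was -0.0675 to -0.0391, with 21 to 25 falling and 7 to 10 rising. The cause of these shifts was not tested. The stricter filter, with 38 members in LLC1, and the set without the outer 3 Mb hold fewer members. Their counts therefore do not compare directly with those of the main fit, and shares of filtered genes under each setting are not given.

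With the replicate block, 20 members fell and 7 rose in relapsed LLC1, 10 and 5 in chronic IFNG KP, 29 and 7 in 1st relapse KP, 29 and 12 in 2nd relapse KP and 25 and 8 in late relapse KP, so the pairing moved no count by over 1.5 times. Same-numbered libraries correlated at -0.303, -0.173 and -0.085 for chronic IFNG against parental LLC1, where the numbers were not taken to pair. Depth was estimated at 13.3 to 18.5 M fragments in chronic IFNG LLC1, and members near the filter had counts of about 130.4.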
